A study of Mus musculus with 23 samples.

Results

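The genes described here are 8 genes of the plasma cell transcription and secretory program, PRDM1, IRF4, XBP1, ELL2, EAF2, ZBTB20, MZB1 and FKBP11, followed through tumors of IL6Myc mice and control B cells. They were chosen by name, as the entries of the deposited expression table that carry these symbols. All 8 were found, each as 1 entry with values of its own, among 15881 distinct profiles above 0, and all 8 were among the 11633 profiles with enough counts to be tested. The table names mouse genes by human symbols, which are kept here.

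The study sequenced total RNA of 23 libraries to describe the IL6Myc transgenic mouse as a model of multiple myeloma, a cancer of plasma cells. From IL6Myc mice came 7 mesenteric lymph node (MLN) tumors and 7 spleen tumors, labelled as malignant plasma cells, and 6 of the 8 tumor mice gave both. The controls were B cells from spleens of wild-type Balb/c mice, as 5 libraries of cells kept in culture with 1 µg/ml of the bacterial mitogen lipopolysaccharide (LPS) for 16 hours, called activated, and 4 libraries of cells called quiescent. Every sample, tumors included, had passed a magnetic negative selection for B cells, which leaves behind any cell that escapes the beads. Tumor mice are named by their numbers in the labels. The labels used here give no ages. They leave unsaid if each control library is an animal of its own, and tests against the controls may therefore reflect only technical spread.

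When a B cell becomes a plasma cell, IRF4 and BLIMP1, the protein of PRDM1, turn off the B cell program, and XBP1 enlarges the endoplasmic reticulum for antibody secretion. XBP1 messenger RNA is spliced by the stress sensor IRE1, the product of ERN1, into the form that encodes the active factor, a step that gene-level counts do not show. ELL2 is a transcription elongation factor that favors the secreted form of immunoglobulin heavy chain messenger RNA, EAF2 is a partner of ELL proteins, and ZBTB20 is a zinc finger repressor that acts in long-lived plasma cells of mice. MZB1 is a chaperone of the endoplasmic reticulum that helps immunoglobulin assembly, and FKBP11 is a peptidyl-prolyl isomerase of secretory cells.

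The libraries held between 13328866 and 25045814 estimated counts. Levels are given as CPM, counts scaled to a common library size with TMM factors, which adjust each library for its composition. SDC1 (syndecan-1, the plasma cell surface marker) lay at 8.84 to 472 CPM in the 14 tumors, at 0.685 to 1.62 CPM in activated and at 22.1 to 25.3 CPM in quiescent cells. PAX5, the B cell identity factor, lay at 6.38 to 1049 CPM in tumors, below all 9 control libraries, whose lowest was 1429 CPM. The tumors were mixed by these markers: the spleen tumor of mouse 1610 had 1049 CPM of PAX5 and 8.84 CPM of SDC1, and that of mouse 1611 had 6.38 CPM of PAX5 and 190 CPM of SDC1. Immunoglobulin genes took 1.03% to 26.3% of the counts in tumors, 0.688% to 0.842% in activated and 2.23% to 2.79% in quiescent cells. Markers of other cells moved with the tumors, with 12 of 12 macrophage, 9 of 9 neutrophil, 8 of 8 erythroid, 8 of 9 stromal, 12 of 14 T cell, 6 of 8 natural killer cell and 5 of 7 dendritic cell genes higher than in quiescent cells. Over all genes tested, 36.8% were called higher in that comparison. The summed level of 12 macrophage genes was 345.5 to 5101 CPM in tumors and 9.87 to 323 CPM in the controls, and that of 9 neutrophil genes was 14.3 to 2300 CPM in tumors and 7.2 to 10.8 CPM in controls. The summed level of 14 T cell genes was 6.67 to 645.5 CPM in tumors and 2.1 to 13.5 CPM in controls, and that of 8 erythroid genes was 104 to 4742 CPM in tumors and 103 to 313 CPM in controls. ELANE, THEMIS and CLEC9A were at 0 in activated cells. The part of these cells in the changes below was not tested, and in bulk samples fewer cells of a type and less RNA per cell cannot be told apart. Y-linked genes summed to 2.75 to 305 CPM in tumors, 0.525 to 0.91 CPM in activated and 348 to 364 CPM in quiescent libraries, so the control groups also differ in sex-linked expression.

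**Figure D1:**
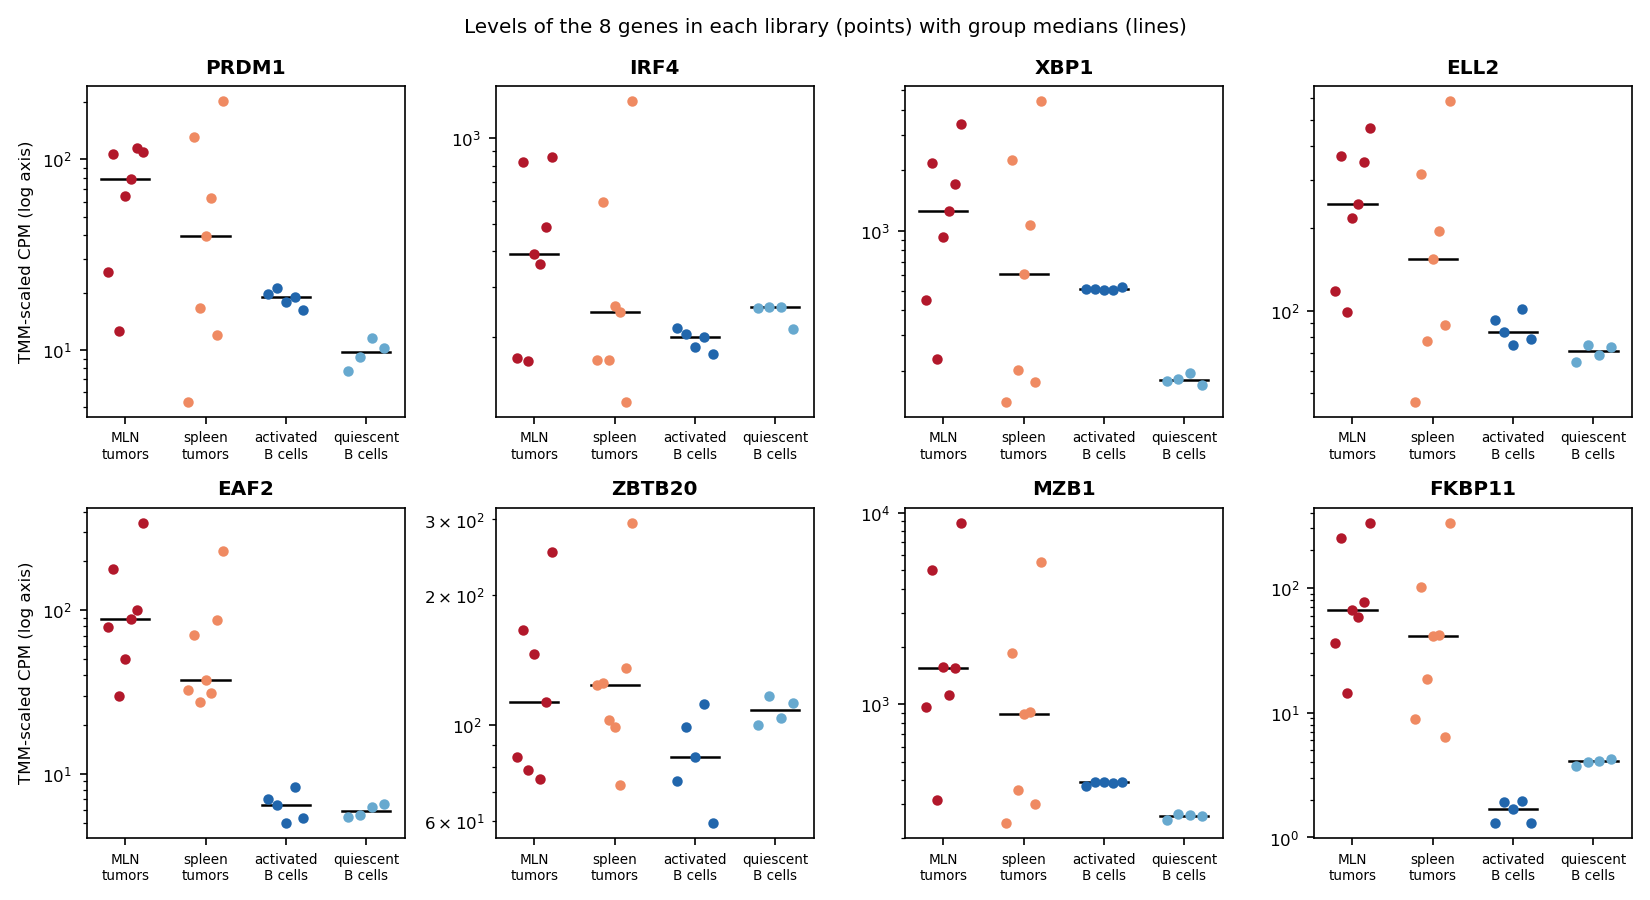
Levels of the 8 genes in each of the 23 libraries, in TMM-scaled CPM on a log axis; points are libraries and lines are group medians. The tumors spread widely in every panel, and only for EAF2 and FKBP11 do all 14 tumor points lie above all 9 control points.

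Of the regulators, PRDM1 had a lowest, median and highest level of 12.6, 78.6 and 115 CPM in MLN tumors and of 5.34, 39.6 and 202.5 CPM in spleen tumors. The activated libraries had 19.7, 21.2, 17.8, 19.1 and 16.2 CPM of PRDM1, and the quiescent libraries 7.73, 9.23, 11.6 and 10.2 CPM. In all, 10 tumors lay above every control, while the MLN tumor of mouse 1611 and the spleen tumors of mice 1612 and 1615 lay among the controls and the spleen tumor of mouse 1610 below all of them. XBP1 had a lowest, median and highest level of 228, 1254 and 3412 CPM in MLN tumors and of 139.7, 606 and 4427 CPM in spleen tumors. The activated libraries had 513, 511, 502, 504 and 521 CPM of XBP1, and the quiescent libraries 178, 181, 193.5 and 169 CPM. XBP1 was thus already higher in activated than in quiescent cells without overlap, and 9 of the 14 tumors lay above all controls.

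IRF4, which acts early in the plasma cell program and is also present in mature B cells, overlapped more with the controls than PRDM1 and XBP1 did. Its lowest, median and highest levels were 165, 393 and 858.5 CPM in MLN tumors and 118, 245 and 1352 CPM in spleen tumors. The activated libraries had 215, 205, 185, 201 and 174 CPM of IRF4, and the quiescent libraries 253, 255, 255 and 213 CPM. Only 8 of the 14 tumors lay above all controls, and 5 lay below every quiescent library. ZBTB20 was the flattest of the 8, with a highest level 3.36 times its lowest in MLN tumors and 4.07 times in spleen tumors. It lay between 75.1 and 253 CPM in MLN tumors, between 72.5 and 295 CPM in spleen tumors, between 59.2 and 112 CPM in activated and between 100 and 116.5 CPM in quiescent cells, so that 7 tumors were within or below the control range.

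The elongation genes behaved differently from each other. ELL2 had a lowest, median and highest level of 98.9, 244 and 465 CPM in MLN tumors and of 46.4, 154 and 584 CPM in spleen tumors. Its activated libraries lay between 74.9 and 101 CPM and its quiescent libraries between 64.8 and 75.0 CPM, and the same 4 tumors that were not above every control for PRDM1 were not so for ELL2. EAF2 had a lowest, median and highest level of 29.9, 88.3 and 343.5 CPM in MLN tumors and of 27.4, 37.5 and 229 CPM in spleen tumors. The activated libraries had 7.02, 6.49, 4.98, 8.27 and 5.35 CPM of EAF2, and the quiescent libraries 5.46, 5.59, 6.22 and 6.54 CPM. Its lowest tumor was 3.31 times its highest control library, so the low tumors for PRDM1 were above every control for EAF2. Of these 4, only the spleen tumor of mouse 1615, at 86.6 CPM, was above the tumor median of 74.7 CPM. The MLN tumor of mouse 1611 had 29.9 CPM. The spleen tumors of mice 1612 and 1610 had 27.4 and 32.6 CPM.

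Both secretory genes were spread widely over the tumors. MZB1 had a lowest, median and highest level of 315, 1544 and 8882 CPM in MLN tumors and of 239, 885 and 5559 CPM in spleen tumors. It lay between 371.5 and 392.5 CPM in activated and between 248.5 and 266 CPM in quiescent cells, and 10 tumors were above every control. FKBP11 had a lowest, median and highest level of 14.4, 66.3 and 334 CPM in MLN tumors and of 6.44, 41.3 and 334.5 CPM in spleen tumors. The activated libraries had 1.31, 1.93, 1.69, 1.95 and 1.3 CPM of FKBP11, and the quiescent libraries 3.72, 4.03, 4.11 and 4.29 CPM. FKBP11 was lower in activated than in quiescent cells without overlap, and every tumor lay above both, the lowest by 1.5 times the highest control library.

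The windows around the transcription starts are shown for Fkbp11 and Eaf2, the genes whose tumors and controls did not overlap, and for Ell2, the elongation partner of Eaf2, whose groups did overlap. The table holds 2 windows for Fkbp11 and 3 for Eaf2, of which the 1 with ACGTGG is shown for Fkbp11 and the 1 farthest upstream for Eaf2, a choice made after the letters were searched. Each runs 5′ to 3′ from 250 bases before to 50 bases after a RefSeq start in the build GRCm38.p6, and capitals mark matches, on either strand, to the letters ACGTGG, TGACGTCA or CCAAT. The Fkbp11 window shown is chr15:98727578-98727877 (minus strand), the Eaf2 window shown chr16:36874777-36875076 (minus strand) and the Ell2 window chr13:75707234-75707533 (plus strand).
Fkbp11: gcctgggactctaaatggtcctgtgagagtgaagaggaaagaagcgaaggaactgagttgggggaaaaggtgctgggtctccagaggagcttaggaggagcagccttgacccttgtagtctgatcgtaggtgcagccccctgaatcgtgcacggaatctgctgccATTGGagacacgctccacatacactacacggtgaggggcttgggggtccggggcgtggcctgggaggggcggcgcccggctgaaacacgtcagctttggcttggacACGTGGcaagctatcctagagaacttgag
Eaf2: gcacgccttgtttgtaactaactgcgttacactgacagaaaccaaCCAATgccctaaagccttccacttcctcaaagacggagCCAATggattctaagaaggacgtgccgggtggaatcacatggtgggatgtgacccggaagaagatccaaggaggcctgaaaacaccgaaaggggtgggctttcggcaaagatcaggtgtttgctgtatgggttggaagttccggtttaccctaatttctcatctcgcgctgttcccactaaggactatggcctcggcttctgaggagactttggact
Ell2: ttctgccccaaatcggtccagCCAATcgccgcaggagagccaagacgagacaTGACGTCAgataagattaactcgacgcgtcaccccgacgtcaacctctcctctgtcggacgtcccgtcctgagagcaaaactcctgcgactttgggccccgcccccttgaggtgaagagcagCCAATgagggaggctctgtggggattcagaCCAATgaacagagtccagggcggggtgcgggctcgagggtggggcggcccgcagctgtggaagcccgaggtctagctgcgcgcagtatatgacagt

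Of the 8 genes, 7 had a promoter sequence in the RefSeq table, in 10 windows. Searched on both strands were ACGTGG, the core that XBP1 elements hold, TGACGTGG, the unfolded protein response element, TGACGTCA, the cyclic AMP response element, CCAAT and CACGTG, the E-box. Also searched were the endoplasmic reticulum stress element and a pair of interferon regulatory factor repeats, which none of the 10 windows held and which 0.119%, 0.253% and 3.44% of all windows hold. The letters ACGTGG were found in 1 of the 10 windows, the Fkbp11 window shown, 21 bases after the start, where they overlap with CACGTG, and the other Fkbp11 window held none of the letters searched. They are held by 8.31% of the 32851 windows in the table and CACGTG by 7.15%. TGACGTCA was found in the Ell2 window, 198 bases before the start, and is held by 1.79% of all windows. CCAAT, read as ATTGG on the other strand, was found in 7 of the 10 windows, against 37.4% of all windows, at 3 places in that of Ell2 and 85 bases before the start in that shown for Fkbp11. None of the 10 windows held TGACGTGG, which 0.676% of all windows hold. These are letters in a sequence and say nothing of which factor binds.

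Against quiescent cells, 6 of the 8 genes were higher in tumors and none was lower, at an adjusted p under 0.05. Of all genes tested, 36.8% were called higher and 31.9% lower, 68.7% in all. The median log2 change was 2.63 over the 8 genes and 0.08 over all genes tested. For these tests both tumors of a mouse were summed, so that 8 tumor mice stood against the control libraries. FKBP11 rose most, with a log2 change of 4.39 ± 0.73 (SE, adjusted p = 9.23e-05), and EAF2 next, with 3.91 ± 0.58 (adjusted p = 3.19e-05). MZB1 rose by 2.83 ± 0.66 (adjusted p = 0.0014), XBP1 by 2.67 ± 0.57 (adjusted p = 0.000745) and PRDM1 by 2.60 ± 0.45 (adjusted p = 0.000124) on the log2 scale. ELL2 rose least of the 6, by 1.55 ± 0.36 (adjusted p = 0.00137). IRF4, at 0.63 ± 0.39 (adjusted p = 0.153), and ZBTB20, at 0.20 ± 0.28 (adjusted p = 0.523), did not pass. EAF2 and FKBP11 had no overlap between tumor and quiescent libraries with the tumors higher, which 13.4% of all genes tested also showed. Without mouse 1616, whose spleen tumor had the highest level of all 8 genes among spleen tumors, the log2 changes of FKBP11, MZB1 and XBP1 were 3.60, 2.01 and 2.07, each still past the threshold. With MLN tumors alone IRF4 passed, at 0.93 (adjusted p = 0.0436), in a fit that called 35.9% of all genes higher.

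Against activated cells, 7 of the 8 genes were higher in tumors, all but ZBTB20, and none was lower. Of all genes tested, 36.1% were called higher and 27.0% lower, 63.2% in all, and the median log2 change was 1.52 over the 8 genes and 0.09 over all genes. FKBP11 again rose most, by 5.76 ± 0.72 (adjusted p = 4.69e-06), and EAF2 by 3.87 ± 0.52 (adjusted p = 9.85e-06). These 2 were also the genes without overlap between the groups, which 12.1% of all genes tested showed with the tumors higher. MZB1 rose by 2.32 ± 0.59 (adjusted p = 0.00252), PRDM1 by 1.71 ± 0.39 (adjusted p = 0.00111) and ELL2 by 1.33 ± 0.33 (adjusted p = 0.00213). XBP1 rose by 1.23 ± 0.48 (adjusted p = 0.035), and IRF4 by 1.02 ± 0.36 (adjusted p = 0.0216). ZBTB20, at 0.61 ± 0.26, did not pass (adjusted p = 0.0526).

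The comparison with activated cells was less stable than that with quiescent cells, which share the tumor libraries. Without mouse 1616 the log2 changes against activated cells were 0.53 for XBP1 (adjusted p = 0.107), 0.48 for IRF4 (0.0323), 0.88 for ELL2 (0.000634) and 1.39 for MZB1 (0.000323). Those of FKBP11 and EAF2 were 4.87 (1.46e-08) and 3.19 (6.78e-08), or 29.3-fold and 9.16-fold, where they were 54.2-fold and 14.6-fold with all mice. With limma and the mouse as a random block, XBP1, at 0.66 (adjusted p = 0.407), IRF4, at 0.78 (0.131), and PRDM1, at 1.26 (0.084), did not pass against activated cells. The summed level of Y-linked genes moved with this comparison, at 128.5 to 305 CPM in 9 tumors, 2.75 to 31.0 CPM in 5 tumors and under 1 CPM in activated cells. With the mean log2 level of 3 Y-linked genes per mouse or control library as a covariate in the fit, only EAF2, at 2.13 (adjusted p = 0.00365), and FKBP11, at 4.07 (adjusted p = 0.000402), passed. The others then had log2 changes of 0.94 for PRDM1, 0.61 for ELL2, 0.59 for MZB1, 0.14 for IRF4 and -0.12 for XBP1, with adjusted p between 0.183 and 0.908. That covariate hardly varied within a control group, at 0.23 to 0.37 in activated and 6.59 to 6.64 in quiescent libraries. In tumor mice it ran from 1.21 to 6.12, so its slope comes almost only from these 8 mice. The cause of the lost calls was not tested. EAF2 and FKBP11 passed in all 28 alternatives run for this comparison and all 27 run against quiescent cells. XBP1 passed in 15 of the 28. Higher in tumors than in both control groups were 6 of the 8 genes, as were 20.7% of all genes tested, and 2 of the 8, EAF2 and FKBP11, had all 14 tumors above all 9 controls, as did 3.56% of all genes.

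**Figure D2:**
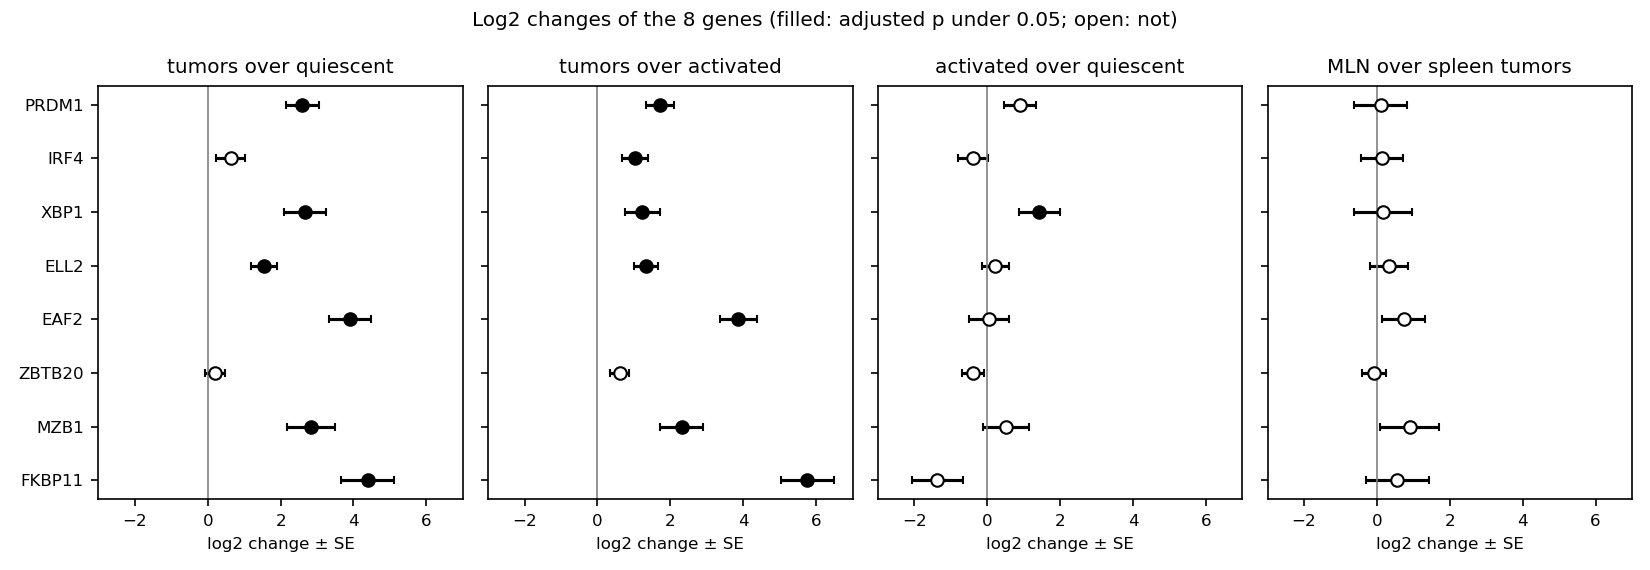
Log2 changes of the 8 genes with their standard errors in the 4 comparisons; filled points passed an adjusted p of 0.05 and open points did not. FKBP11 and EAF2 lie farthest to the right in both comparisons of tumors with controls, at 4.39 and 3.91 against quiescent and 5.76 and 3.87 against activated cells.

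LPS is known to start B cells on the way to antibody secretion, and the 8 genes differed between activated and quiescent cells in different directions. In the fit over all 3 groups only XBP1 passed between activated and quiescent cells, with a log2 change of 1.43 ± 0.57 (adjusted p = 0.0378), against 59.5% of all genes tested, 25.4% higher and 34.1% lower. The spread in that fit is that of the tumors as well. With only the 9 control libraries in the fit, an alternative chosen after seeing the data, 6 of the 8 genes passed, against 75.1% of all genes, 36.3% higher and 38.8% lower. XBP1 was then higher in activated cells by 1.53 (adjusted p = 2.62e-12), PRDM1 by 0.99 (4.57e-06), MZB1 by 0.61 (5.55e-09) and ELL2 by 0.32 (0.00289) on the log2 scale. FKBP11, at -1.27 (0.000108), and IRF4, at -0.29 (0.00152), were lower in activated cells, and EAF2, at 0.14 (0.434), and ZBTB20, at -0.31 (0.0648), did not pass. PRDM1, XBP1 and MZB1 were higher in activated than in quiescent cells without overlap, as were 32.1% of all genes, and FKBP11 was lower without overlap, as were 35.1%. LPS treatment and the level of Y-linked genes separate these groups in the same way and cannot be told apart. In the fit over all 3 groups the XBP1 call was lost when any 1 control library was left out, with adjusted p between 0.0542 and 0.0774.

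Tumors of the 2 sites were compared over the 14 tumor libraries. None of the 8 genes differed between MLN and spleen tumors by edgeR, nor did any of the 11633 genes tested, a share of 0.0%, while 511 genes, 4.39%, had an unadjusted p under 0.05. DESeq2 called 20 genes, none of them among the 8. The log2 changes ran from -0.07 for ZBTB20 to 0.90 for MZB1, all with an adjusted p of 0.999. Their intervals were wide: the 95% interval was -1.32 to 1.51 for PRDM1, -1.38 to 1.71 for XBP1 and -0.69 to 2.50 for MZB1, so that site differences of over 2-fold in either direction stay within those of PRDM1 and XBP1. ZBTB20 had the narrowest, -0.73 to 0.58. A fit blocked on the mouse, over the 6 pairs, called no gene either.

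Within a mouse the tumors of the 2 sites differed widely, and in different directions. In mouse 1610 all 8 genes were higher in the MLN tumor than in the spleen tumor, by a median log2 ratio of 3.48, with PRDM1 at 107 CPM in the MLN and 5.34 CPM in the spleen tumor and FKBP11 at 253 and 8.9 CPM. In mouse 1615 the MLN tumor was higher for 7 of the 8 genes, by a median of 2.20, with XBP1 at 1714 CPM in the MLN and 175 CPM in the spleen tumor. In mouse 1611 the direction was the opposite, with all 8 lower in the MLN tumor by a median of -2.21, and XBP1 at 228 CPM in the MLN and 2248 CPM in the spleen tumor. In mice 1613 and 1614 all 8 were higher in the MLN tumor, by medians of 0.62 and 0.33, and EAF2 in mouse 1614 was at 88.3 CPM in the MLN and 31.0 CPM in the spleen tumor. In mouse 1616 both tumors were high, with 2 of the 8 higher in the MLN tumor. Over the 6 pairs the mean log2 ratio was 0.72 ± 2.79 (SD) for PRDM1, 0.74 ± 2.64 for XBP1 and 1.13 ± 2.73 for FKBP11, and exact sign-flip permutation tests (2-sided, smallest possible p = 0.0312) gave p between 0.281 and 0.938 for the 8 genes. ZBTB20 moved least within mice, with log2 ratios between -0.68 and 0.56.

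**Figure D3:**
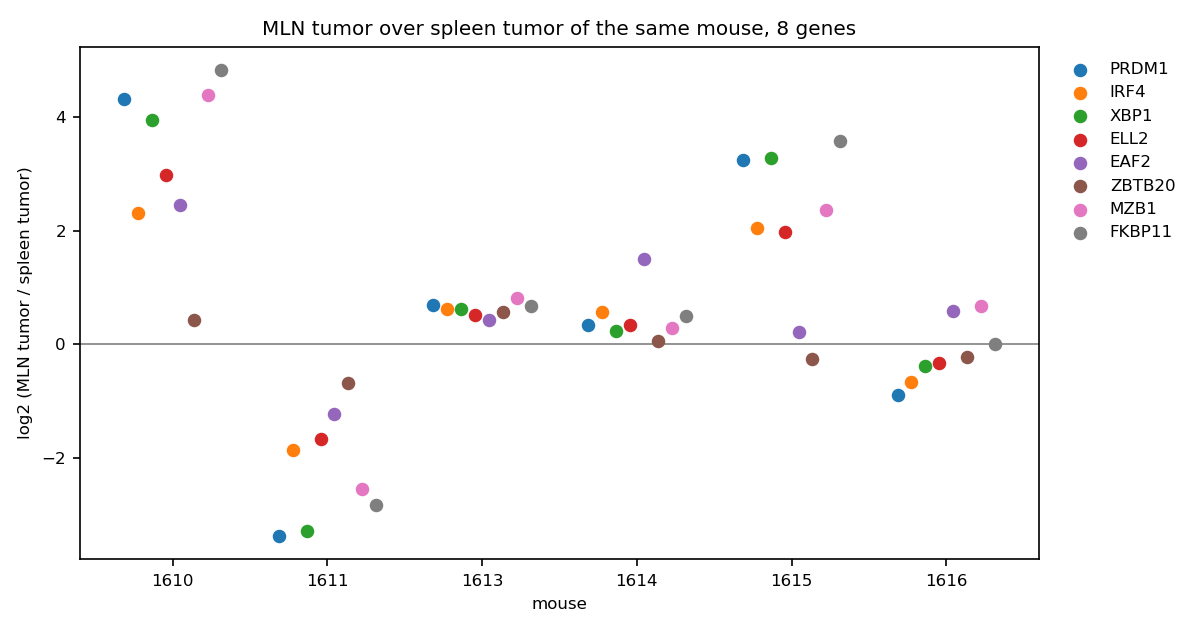
Log2 ratio of the MLN tumor to the spleen tumor of the same mouse for each of the 8 genes, in the 6 mice that gave both tumors. Most genes of a mouse lie on the same side of 0, above it in mice 1610, 1613, 1614 and 1615 and below it in mouse 1611.

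The immunoglobulin share of a library followed the levels of several of the genes over the 8 tumor mice. The genes were chosen by name but with earlier results of these data known, so the share is not an independent readout. This share and the mean levels of 10 B cell and 12 macrophage genes, were each set against the 8 genes. The 24 relations were tested by exact permutation (2-sided) and adjusted over the 24. Pearson's r with the log2 immunoglobulin share was 0.94 for XBP1 (p = 0.00211, adjusted 0.0151; Spearman's rho 0.88, p = 0.00724, adjusted 0.0348) and 0.92 for FKBP11 (p = 0.00126, adjusted 0.0151; rho 0.93, p = 0.00223, adjusted 0.0178). For IRF4 r was 0.90 (p = 0.00303, adjusted 0.0151; rho 0.95, p = 0.00114, adjusted 0.0137). MZB1 passed by r, at 0.90 (exact permutation p = 0.00419, adjusted 0.0151), while its rho of 0.79 did not after adjustment (p = 0.0279, adjusted 0.0837). Without mice 1616 and 1612, the 2 farthest from the median share, r was 0.90 for IRF4, 0.90 for FKBP11, 0.73 for XBP1 and 0.73 for MZB1. For PRDM1 r was 0.88 with all mice and 0.47 without those 2, and for ELL2 0.88 and 0.44. Over summed mice these relations thus depended on those 2 mice. Summing joined tumors of unlike share. In mouse 1610, PRDM1 was 107 CPM at a share of 26.3% in the MLN and 5.34 CPM at 1.13% in the spleen tumor. In mouse 1611 it was 12.6 CPM at 2.01% and 131 CPM at 17.5%. The relation over single tumors was not tested. EAF2, with r of 0.75 (adjusted p = 0.0651 by permutation), and ZBTB20, with 0.60 (0.142), did not pass.

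The B cell list ran the other way. PRDM1 had an r of -0.89 with the mean log2 level of the B cell list (exact permutation p = 0.00345, adjusted 0.0151; rho -0.95, p = 0.00114, adjusted 0.0137), and -0.82 without mice 1614 and 1616. For ELL2 r was -0.92 (exact permutation p = 0.00107, adjusted 0.0151; rho -0.90, p = 0.00456, adjusted 0.0274), and -0.82 without those 2 mice. XBP1 also passed by r, at -0.89 (exact permutation p = 0.00439, adjusted 0.0151), and had -0.79 without those 2 mice. Its rho of -0.83 did not pass after adjustment (exact permutation p = 0.0154, adjusted 0.0616). With the macrophage list only ZBTB20 passed by r, at -0.77 (exact permutation p = 0.0183, adjusted 0.0439), while its rho of -0.81 did not after adjustment (p = 0.0218, adjusted 0.0747) and r was -0.56 without mice 1610 and 1616. In all, 10 of the 24 relations passed by Pearson's r and 5 by Spearman's rho. All measures of a mouse come from the same libraries.

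**Figure D4:**
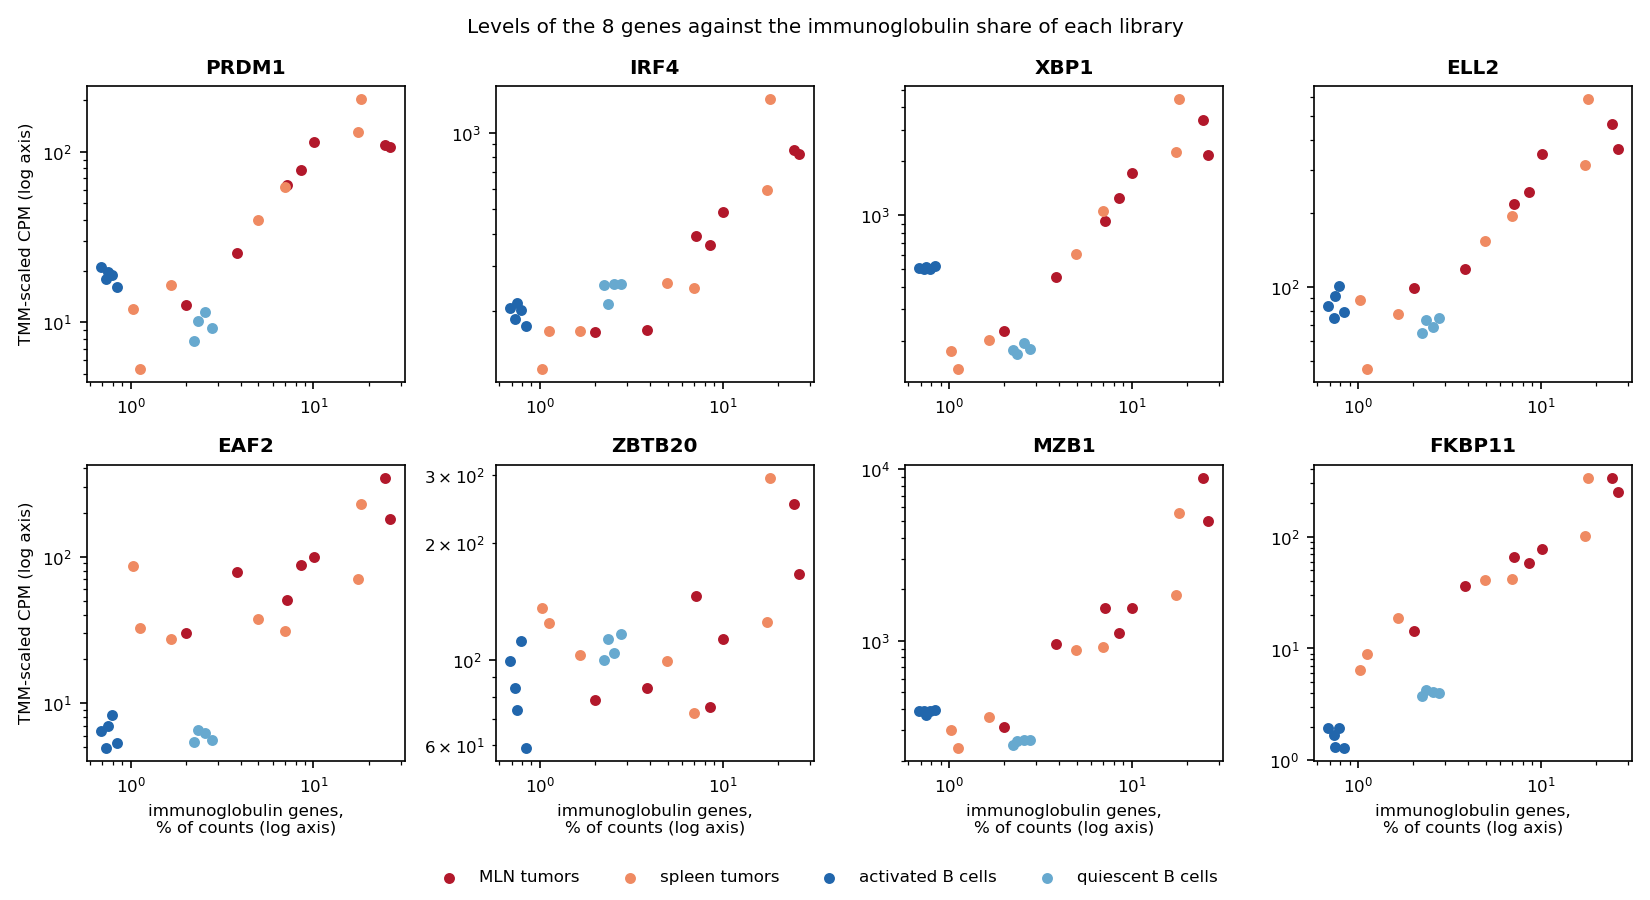
Level of each of the 8 genes (TMM-scaled CPM, log axis) against the share of counts in immunoglobulin genes (percent, log axis) in each of the 23 libraries. Among tumors the points of PRDM1, XBP1, IRF4, MZB1 and FKBP11 climb with the share from about 1.03% to 26.3%, while activated cells have XBP1 near 511 CPM at a share of at most 0.842%.

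Among the 28 pairs of the 8 genes, Pearson's r over the 8 tumor mice ran from 0.60 to 0.99, with a median of 0.88. By exact permutation (2-sided, adjusted over the 28 pairs) 23 pairs passed by r and 5 by rho, and the smallest p was 7.44e-05. PRDM1 with XBP1 had r of 0.98 (exact permutation p = 0.000298, adjusted 0.00209) and rho of 0.93 (p = 0.00223, adjusted 0.0208). PRDM1 with ELL2 had r of 0.98 (exact permutation p = 7.44e-05, adjusted 0.00139) and rho of 0.98 (p = 0.000397, adjusted 0.0111). XBP1 with ELL2 had r of 0.99 (exact permutation p = 0.000694, adjusted 0.00389) and rho of 0.88 (p = 0.00724, adjusted 0.0405). These 3 genes thus went together over mice, and without mice 1616 and 1612 their r was 0.93, 0.98 and 0.90. The other pairs were IRF4 with FKBP11 (r = 0.96, exact permutation p = 9.92e-05, adjusted 0.00139; rho = 0.95, p = 0.00114, adjusted 0.016) and MZB1 with FKBP11 (r = 0.99, exact permutation p = 0.000198, adjusted 0.00185; rho = 0.88, p = 0.00724, adjusted 0.0405). Without the 2 mice farthest from the median of the gene named first, their r was 0.97 and 0.95. For PRDM1 with MZB1 r was 0.81 and turned to -0.14 without mice 1616 and 1612, and for XBP1 with EAF2 it was 0.81 and turned to -0.34. Over summed mice these relations thus depended on those mice. Over single tumors, with all mice kept, PRDM1 with MZB1 had r of 0.81 in MLN and 0.96 in spleen tumors. XBP1 with EAF2 had 0.89 and 0.62. EAF2 and ZBTB20 took part in no pair that passed by rho.

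**Figure D5:**
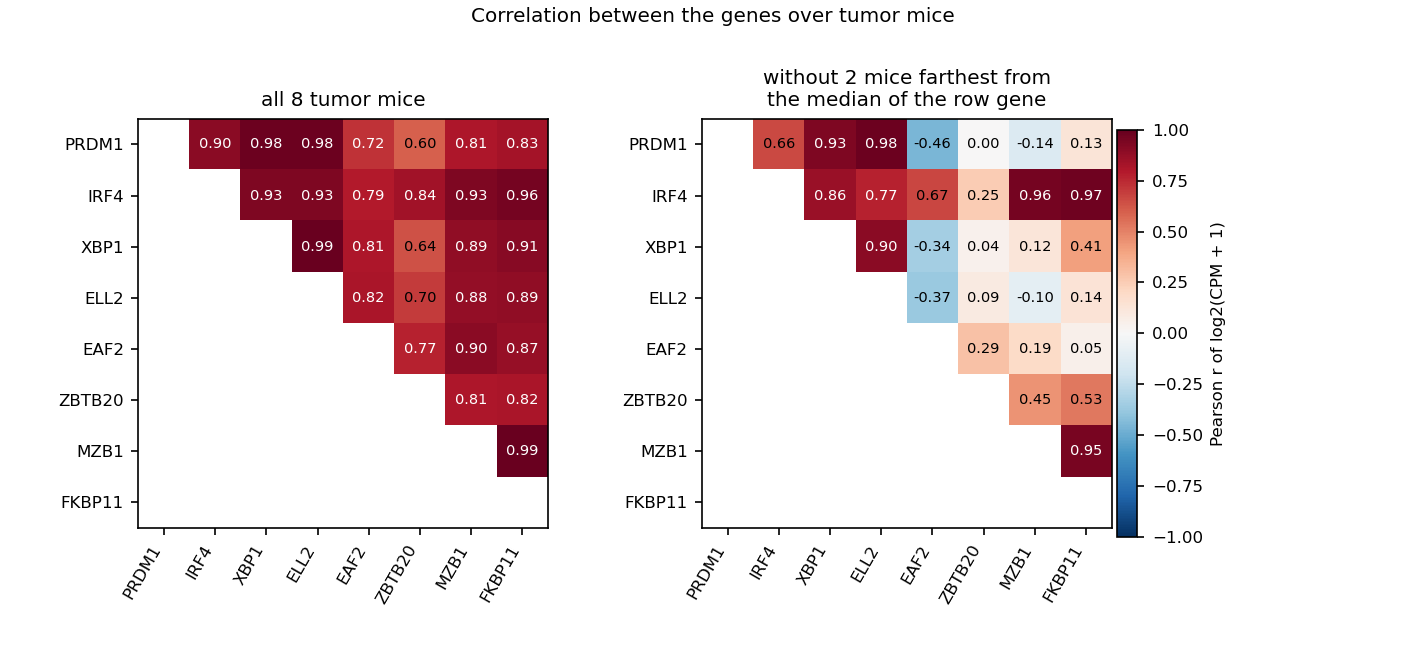
Pearson's r of log2(CPM + 1) for each pair of the 8 genes over tumor mice, left with all 8 mice and right without the 2 mice farthest from the median of the row gene. All 28 values on the left are between 0.60 and 0.99, and on the right they run from -0.46 to 0.98.

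Genes with the most similar pattern over the 14 tumor libraries were ranked by Pearson's r with the mean standardized level of the 8 genes, among 9754 genes at a mean of 5 CPM or more. The 10 highest were TMEM214, CALU, SPCS1, MANF, COPE, SEC61A1, DNAJC3, NBAS, HDLBP and HYOU1, with r from 0.99 to 0.995. SPCS1 is a subunit of the signal peptidase, SEC61A1 the channel for nascent proteins, COPE a subunit of the vesicle coat, and MANF, DNAJC3 and HYOU1 are factors of the endoplasmic reticulum lumen. Gene by gene, ELL2 was closest to SEL1L, XBP1 and PRDX4 (0.985, 0.984 and 0.983), MZB1 to SDF2L1, MANF and HSP90B1 (0.991, 0.988 and 0.987) and FKBP11 to HSP90B1, KDELR3 and CRELD2 (0.992, 0.991 and 0.99). IRF4 was closest to NBAS, MYC and COQ9 (0.991, 0.987 and 0.986). XBP1 was closest to CPED1, ICA1 and MARVELD3 (0.995, 0.994 and 0.991) and PRDM1 to ANKRD55, RHPN2 and TMEM176A (0.987, 0.986 and 0.985). EAF2, closest to IMP3, GRHPR and EMC4 (0.963, 0.959 and 0.958), and ZBTB20, closest to RUSC1, NSFL1C and FOXP4 (0.945, 0.943 and 0.937), had less similar neighbors. These values describe 14 libraries of 8 mice that share their depth and composition.

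The genes that XBP1 is known to drive and the wider secretory machinery were higher in tumors. Of 38 tested, 32 were higher and none lower than in quiescent cells, with a median log2 change of 1.49 against 0.08 over all genes, and 29 were higher and none lower than in activated cells, with a median of 1.16 against 0.09. Of all genes tested, 36.8% and 36.1% were called higher in these comparisons. With limma and the mouse as a random block, 25 of the 38 were higher than in quiescent and 16 than in activated cells, and with spleen tumors alone 27 and 18. DERL3, which helps export misfolded proteins from the endoplasmic reticulum, rose by 4.13 ± 0.79 against quiescent cells (adjusted p = 0.000309), to 18.5 to 1521 CPM in tumors against 16.8 to 25.1 CPM in quiescent cells. CRELD2, a chaperone-like factor of the endoplasmic reticulum, rose by 3.44 ± 0.68 (adjusted p = 0.000375), and SSR4, a subunit of the translocon-associated complex, by 2.85 ± 0.55 (adjusted p = 0.000305). Against activated cells EDEM2, which trims mannose from misfolded glycoproteins, rose by 2.81 ± 0.46 (adjusted p = 7.01e-05). With the Y-linked covariate, 4 of the 38 were called against activated and 33 were called against quiescent cells. Between activated and quiescent cells 5 of the 38 were higher, against 25.4% of all genes, among them SEC61G, a channel subunit, at 1.12 ± 0.22 (adjusted p = 0.000307). With only the control libraries in the fit, 26 of the 38 were higher and 7 lower in activated cells, against 36.3% and 38.8% of all genes.

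Sensors and regulators of the unfolded protein response did not move as 1 group. Of 13 tested, 5 were higher and none lower in tumors than in quiescent cells, near the 36.8% of all genes called higher. Compared with activated cells 4 were higher and 6 lower, where 36.1% and 27.0% of all genes were. Against quiescent cells 8 were higher on quantile-normalized values or with the Y-linked covariate, and 3 with the mouse as a random block. ERN1, the sensor that splices XBP1, rose by 2.77 ± 0.54 against quiescent (adjusted p = 0.000361) and 3.13 ± 0.50 against activated cells (adjusted p = 5.48e-05), and CREB3L2, a transcription factor tethered to the endoplasmic reticulum, by 2.96 ± 0.49 (adjusted p = 9.01e-05) and 4.02 ± 0.48 (adjusted p = 2.79e-06). TRIB3, a target of the ATF4 arm, was 0.353 to 20.2 CPM in tumors against 152 to 179 CPM in activated cells, with a log2 change of -5.65 ± 0.55 (adjusted p = 3.64e-07). In quiescent cells TRIB3 was at 0.803 to 1.53 CPM, so that it was high only in activated cells. ATF4 itself was 1.51 ± 0.17 higher in activated than in quiescent cells (adjusted p = 1.45e-06).

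Of 15 factors that repress or oppose the plasma cell program, 11 were lower and 2 higher in tumors than in quiescent cells, with a median log2 change of -1.25, and 3 were lower and 3 higher than in activated cells. When spleen tumors were fitted alone, 3 were lower than in quiescent cells and none was lower than in activated cells, and with the Y-linked covariate none was lower than in activated cells. EBF1, a B lineage factor, had a log2 change of -1.5 ± 0.25 (adjusted p = 0.00011) and ID3, an inhibitor of E proteins, -1.61 ± 0.29 (adjusted p = 0.000194) against quiescent cells. PAX5 was 1.39 ± 0.31 log2 units lower in tumors than in activated cells (adjusted p = 0.000839). Of 15 plasma cell identity genes, 8 were higher and 3 lower in tumors than in quiescent cells and 10 were higher and 2 lower than in activated cells. For both lists, the shares over all genes tested were 36.8% higher and 31.9% lower against quiescent and 36.1% and 27.0% against activated cells. The summed level of the 15 identity genes was 1972 to 21110 CPM in tumors and 3033 to 3578 CPM in quiescent cells, so some tumors lay below every quiescent library. PRDX4, a peroxiredoxin of the endoplasmic reticulum, rose by 4.06 ± 0.61 against quiescent cells (adjusted p = 3.64e-05), and HNRNPLL, a splicing regulator of plasma cells, by 4.72 ± 0.43 (adjusted p = 3.44e-07).

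The elongation partners of ELL2 and EAF2 did not rise with them. Of 19 genes of the super elongation complex, its partners and the 3′ end processing factors, 1 was higher and 12 were lower in tumors than in quiescent cells, with a median log2 change of -0.43 against 0.08 over all genes, and 1 was higher and 5 were lower than in activated cells. Over all genes tested, 36.8% were higher and 31.9% lower than in quiescent cells. Against activated cells 36.1% were higher and 27.0% lower, so that the 5 lower genes lie near the share of all genes. With spleen tumors alone 7 were lower than in quiescent and 2 than in activated cells, and none was higher. ELL3, a relative of ELL2 found in B cells, was -1.55 ± 0.35 against quiescent cells (adjusted p = 0.00113) and 1.97 ± 0.37 against activated cells (adjusted p = 0.000244), with 0.402 to 88.5 CPM in tumors, 10.03 to 12.2 CPM in activated and 104 to 132 CPM in quiescent cells. AFF1, a scaffold of the complex, was -0.91 ± 0.14 against quiescent cells (adjusted p = 3.8e-05), and CSTF2, the cleavage factor of messenger RNA 3′ ends, was -0.70 ± 0.06 against activated cells (adjusted p = 8.8e-08).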

How the data were processed

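RNA sequencing data of 14 tumor and 9 control B cell libraries were used. The deposited values are estimated counts per gene, a unit set from the values, since their totals of 13328866 to 25045814 per library are those of counts although the table is named for TPM. Per the labels, libraries were stranded and made from total RNA. The submitters' processing notes name Trim Galore 0.4.0, DESeq2 and the build GRCm39. Neither the quantifier nor the step behind the human names is given there or in the labels.

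From 61651 entries, 21282 had values, and entries with identical values were merged. Counts were rounded and tested with edgeR 4.0.16 (quasi-likelihood, TMM, 2-sided) in R 4.3.3, over 11633 profiles at 1 CPM or more in at least 4 libraries. P-values were adjusted by Benjamini-Hochberg over all of them, with a threshold of 0.05. The SE is the absolute log2 change over the square root of edgeR's F. DESeq2 1.42.0 and limma 3.58.1 gave alternatives. The fits were tested on simulated data.

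Both tumors of a mouse were summed. The pairing of MLN and spleen tumors comes from the series' design text. Deviations of paired tumors from their site means correlated at -0.20, -0.36, 0.41, -0.29, -0.49 and 0.72 for mice 1610, 1611 and 1613 to 1616. Promoter windows are RefSeq's on GRCm38.p6, another build than that of the counts.

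The members and lists were chosen with earlier results of these data known. All 8 members are named, from other lists at most 3 genes per comparison with the largest called changes, and by similarity the 10 genes nearest to all members and the 3 nearest to each. Genes with 0 to a few counts in a control group are given no fold. A gene that this rule names is not reported here.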

Additional observations from a re-analysis of the deposited data

Results flagged for a closer look

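Among 32 sets of libraries, 8 genes in each of 4 groups, 7 held a library far from the others of its group. Distance was measured in CPM, not on a log scale, which favors flags at high levels. The 32 sets share their libraries and are not independent, so the 7 flags cannot be set against a chance rate. The spleen tumor of mouse 1616 made 5 of the 7 flags. It had 1352 CPM of IRF4, where the next spleen tumor had 598 CPM, 229 CPM of EAF2, where the next had 86.6 CPM, and 295 CPM of ZBTB20, where the next had 136 CPM. It also had 5559 CPM of MZB1, where the next had 1840 CPM, and 334.5 CPM of FKBP11, where the next had 102 CPM. In activated cells, MZB1 was lowest in library 1, at 371.5 CPM, with the next at 389 CPM. In quiescent cells, IRF4 was lowest in library 4, at 213 CPM, with the next at 253 CPM.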

How the results depend on the processing

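The log2 changes of the 8 genes kept their direction and side of the threshold in 686 cases over all comparisons and alternatives, lost a call in 29, gained one in 23 and turned round in 14. Against activated cells 7 of the 8 genes were called, 2 with the level of Y-linked genes in the fit, where XBP1 was -0.12, and 4 with limma and the mouse as a random block, where XBP1, IRF4 and PRDM1 lost the call. Between activated and quiescent cells 1 was called, 2 with DESeq2, 6 with only the control libraries in the fit and 7 with the replicate number as a block over libraries 1 to 4. Deviations of same-numbered controls correlated between -0.02 and 0.00. This cannot tell if equal numbers mark a pair, since tumors of 1 mouse correlated anywhere from -0.49 to 0.72. Between MLN and spleen tumors edgeR called 0 genes, also with the mouse as a block, and DESeq2 20. The cause of these differences was not tested.

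With 1 mouse or library left out at a time, the genes called numbered 7351 to 8364 against quiescent cells, 6815 to 8196 against activated cells, 6416 to 6609 between activated and quiescent cells and 0 to 0 between sites. Of the 8 genes, 6 to 6, 6 to 8, 0 to 0 and 0 to 0 were called. Without mouse 1616 ZBTB20 was -0.05 against quiescent cells, and EAF2 ran from -0.06 to 0.12 between activated and quiescent cells when 1 activated library was left out. Between MLN and spleen tumors PRDM1 was -0.21, -0.07 and -0.21 without mice 1610, 1612 and 1615, XBP1 -0.15, -0.02 and -0.04 without the same mice, IRF4 -0.18 and -0.01 without mice 1610 and 1615, and ZBTB20 0.01 without mouse 1609, 1611 or 1616.

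Quantile normalization moved the median of all genes by -0.19 against quiescent and -0.20 against activated cells, and the share of calls that were higher to 39.6% and 37.9%, where it was 53.6% and 57.2%. Leaving out immunoglobulin genes gave 49.1% against activated cells. The lowest levels among the 8 genes were those of FKBP11 in activated cells, 1.3 to 1.95 CPM at 20194017 to 25045814 counts per library.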

Other observations

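The relatives of FKBP11 changed in both directions. Of 11 other FKBP genes tested, 6 were higher and 4 lower in tumors than in quiescent cells, and 5 were higher and 4 lower than in activated cells. Over all genes tested, 36.8% and 36.1% were called higher and 31.9% and 27.0% lower in these comparisons. On quantile-normalized values 2 of the 11 were higher and 2 lower than in quiescent cells. FKBP9, an isomerase of the endoplasmic reticulum, was at 0.102 to 4.95 CPM in tumors and 0.0536 to 0.307 CPM in quiescent cells, a few counts per library in quiescent cells. FKBP1A, the cytosolic target of tacrolimus, was 1.00 ± 0.12 log2 units higher in activated than in quiescent cells (adjusted p = 2.36e-06).

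Of 17 partners of IRF4 and BLIMP1, 6 were higher and 7 lower in tumors than in quiescent cells, and 4 were higher and 8 lower than in activated cells. Over all genes tested, 36.8% and 36.1% were called higher and 31.9% and 27.0% lower in these comparisons. BATF, which binds DNA together with IRF4, was at 1.37 to 50.4 CPM in tumors and 95.4 to 116 CPM in activated cells (log2 change -2.41 ± 0.29, adjusted p = 3.33e-06), and at 9.28 to 11.5 CPM in quiescent cells. EZH2, the polycomb methyltransferase that works with BLIMP1, was at 16.3 to 118 CPM in tumors and 17.2 to 25.0 CPM in quiescent cells (1.53 ± 0.28, adjusted p = 0.000205), and at 158 to 228 CPM in activated cells. REL, a subunit of NF-kB, was -1.56 ± 0.24 in tumors against activated cells (adjusted p = 4.15e-05). FOS, part of AP-1, was at 21.5 to 720.5 CPM in tumors and 0.447 to 1.59 CPM in activated cells (7.58 ± 0.72, adjusted p = 3.13e-07). In quiescent cells FOS was at 21.0 to 49.3 CPM, and the change in tumors against them was smaller (2.45 ± 0.58, adjusted p = 0.00161).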
